A study of Mus musculus with 9 samples.

Results

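Astrocytes are the glial cells that clear potassium and glutamate from the space around neurons, move water at blood vessels and couple to each other through gap junctions. This account covers 10 genes that mark astrocytes or carry out these tasks: Gfap, Kcnj10, Aqp4, S100b, Slc1a2, Slc1a3, Glul, Gja1, Aldh1l1 and Sox9. Every probe set that the platform annotation assigns to exactly 1 of these genes was taken, which gave 33 of the 45037 probe sets tested and 10 of the 18193 genes. Gfap and Kcnj10 were known to be higher in BALB/cJ brain in these data, and the question was whether the other astrocyte genes shared that difference, so the values of those 2 genes describe what was already seen.

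RNA came from brain hemispheres of untreated adult male mice, 11 ± 1 weeks old, with the cerebellum left off. The strains were B6By.C.132.54, which by its name carries BALB/c DNA on a C57BL/6By background, and the inbred strains BALB/cJ and C57BL/6ByJ. Each Affymetrix Mouse Genome array held a pool of 10 hemispheres, and each strain had 3 arrays from 30 mice, so the spread between arrays is a spread between pools. The labels do not say which parts of the B6By.C.132.54 genome come from BALB/c.

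Levels are log2 of the deposited intensity, differences are on the same log2 scale, and a probe set is said to be called where its adjusted p is below 0.05 (limma, Benjamini-Hochberg over the 45037 probe sets). The levels of different probe sets are not comparable with each other, because each binds its target with its own efficiency. In a whole hemisphere, fewer cells of a type and less RNA per cell cannot be told apart. The median intensity of an array lay between 15.49 and 15.99, and the mean correlation of an array with the others of its strain was lowest, at 0.988, for B6By.C.132.54 replicate 3, which also had the narrowest interquartile range (2.731, against up to 2.982).

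Transcription of Gfap in mouse astrocytes is known to respond to STAT3 and to nuclear factor I proteins, and Kcnj10 rises as astrocytes mature. The start regions of Gfap and Kcnj10, the genes known to be higher in BALB/cJ, and of Slc1a2, whose probe sets disagreed, are shown for that reason. They are from RefSeq on GRCm38.p6, run from 250 bases before the annotated start to 50 bases after it, and are read 5′ to 3′ along the gene's own strand. Capitals mark TTCNNNGAA, the core of a STAT site, in Gfap, and TTGGC on either strand, the short letters of a nuclear factor I site, in Kcnj10 and Slc1a2.
Gfap, chr11:102897151-102897450, minus strand: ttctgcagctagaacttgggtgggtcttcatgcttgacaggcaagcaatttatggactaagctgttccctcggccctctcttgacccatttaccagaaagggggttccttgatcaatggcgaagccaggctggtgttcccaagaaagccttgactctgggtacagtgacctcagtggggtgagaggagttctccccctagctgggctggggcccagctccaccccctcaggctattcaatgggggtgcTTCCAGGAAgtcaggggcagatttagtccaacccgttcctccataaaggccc
Kcnj10, chr1:172340960-172341259, plus strand: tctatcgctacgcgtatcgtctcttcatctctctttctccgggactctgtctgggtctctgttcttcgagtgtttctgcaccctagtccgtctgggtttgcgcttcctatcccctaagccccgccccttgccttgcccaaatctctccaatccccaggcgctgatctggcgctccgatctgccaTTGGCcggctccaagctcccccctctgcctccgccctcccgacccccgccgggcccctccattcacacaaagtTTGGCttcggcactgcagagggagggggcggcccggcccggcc
Slc1a2, chr2:102706188-102706487, plus strand: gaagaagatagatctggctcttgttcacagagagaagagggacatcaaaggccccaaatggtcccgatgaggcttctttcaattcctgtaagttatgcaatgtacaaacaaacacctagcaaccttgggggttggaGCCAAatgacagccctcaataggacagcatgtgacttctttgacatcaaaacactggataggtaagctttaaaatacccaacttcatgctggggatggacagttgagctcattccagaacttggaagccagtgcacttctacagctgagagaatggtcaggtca
The Gfap window held TTCNNNGAA once, across the annotated start (2 bases before it to base 7), and no TTGGC. The Kcnj10 window held TTGGC at 66 to 62 bases before the start and again at bases 8 to 12, and no TTCNNNGAA. Of 27025 start regions of mouse genes with the same length, 8.47% held TTCNNNGAA on either strand and 47% held TTGGC. Windows of 8 of the 10 genes were searched: TTCNNNGAA was also in that of Slc1a3, and TTGGC also in those of S100b, Slc1a2 and Glul. The TATA box letters TATAAA were in 14.2% of start regions and, of the 8, in that of Slc1a3. These letter matches describe the sequence only.

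In BALB/cJ, 5 of the 33 astrocyte probe sets were called higher than in C57BL/6ByJ and 0 were called lower. They belonged to 3 genes: all 3 probe sets of Gfap, the only probe set of Kcnj10 and 1 of the 5 of Slc1a2. Gfap and Kcnj10 were chosen for being higher in BALB/cJ, so their calls, and counts that include them, are no new result. Outside these genes Slc1a2 1439940_at was the only probe set called, and by brightest probe set the other 8 genes were not called. Among all probe sets 1.43% were called between these strains and 0.508% were called higher in BALB/cJ; among genes, taken by their brightest probe set, 2 of the 10 were called (Gfap and Kcnj10), with 1.32% of all genes called. The other 28 probe sets were not called, and the median difference over the 33 was -0.02, beside 0.02 over all probe sets tested. Of the 33 differences, 14 were above 0 and 19 below. The median and these counts include Gfap and Kcnj10.

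The same 5 probe sets were called lower in B6By.C.132.54 than in BALB/cJ, with 0 called higher. Slc1a2 1439940_at was again the only one of them outside Gfap and Kcnj10. For that pair 1.28% of all probe sets were called, 0.564% were called lower, and 1.1% of genes were called by their brightest probe set. The median over the 33 was -0.08, beside -0.02 over all probe sets. This comparison and the previous one share the BALB/cJ arrays, so a high BALB/cJ value enters both, and they are not independent of each other. Between B6By.C.132.54 and C57BL/6ByJ, limma called 0 of the 33 probe sets, and 0 of them had an unadjusted p below 0.05. Of all probe sets 0% were called there, and 3.89% had an unadjusted p below 0.05. With the replicate number as a block, 3 of the 33 passed the unadjusted threshold for this pair and 0 were called. The share of all probe sets past the unadjusted threshold with the block is not given here.

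**Figure D1:**
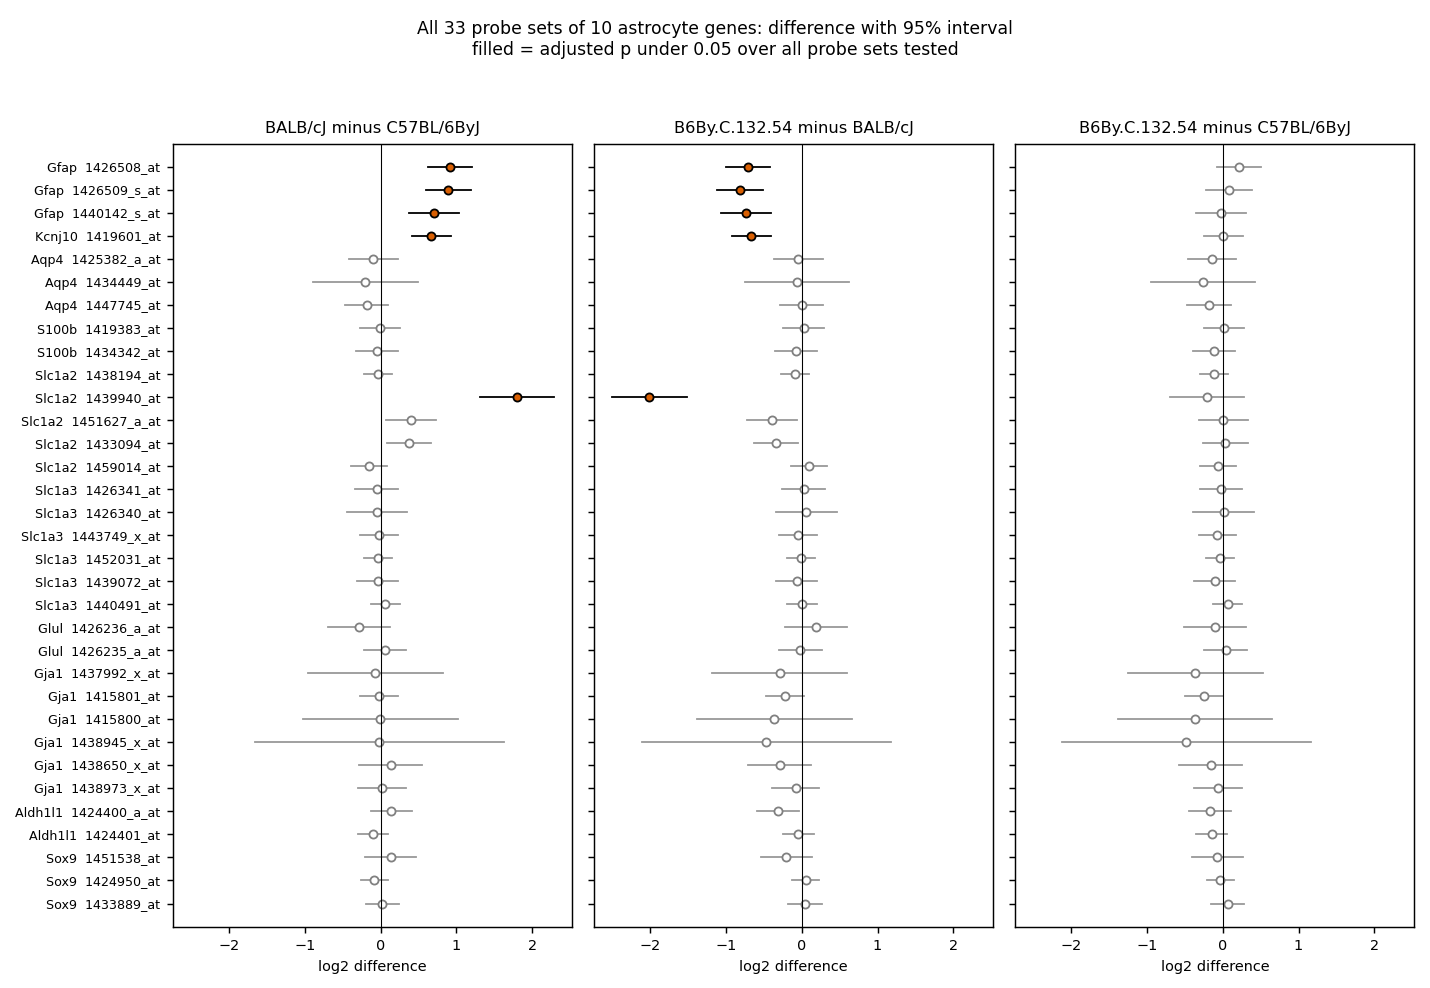
Log2 differences of all 33 probe sets of the 10 astrocyte genes (points) with 95% intervals from limma, not adjusted for multiple tests (lines), for BALB/cJ minus C57BL/6ByJ, B6By.C.132.54 minus BALB/cJ and B6By.C.132.54 minus C57BL/6ByJ. Filled points have an adjusted p below 0.05: the 3 of Gfap, that of Kcnj10 and 1 of Slc1a2 in the first and second panels, and 0 in the third.

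Gfap encodes glial fibrillary acidic protein, the main intermediate filament of astrocytes, and lies on chromosome 11. Its brightest probe set, 1426508_at, measured 7.24, 7.47 and 7.34 in the B6By.C.132.54 arrays, 7.99, 8.09 and 8.09 in the BALB/cJ arrays, and 6.96, 7.47 and 6.99 in the C57BL/6ByJ arrays. All 3 BALB/cJ arrays stood above the other 6, and the B6By.C.132.54 and C57BL/6ByJ arrays overlapped. The level was 8.06 ± 0.06 in BALB/cJ and 7.14 ± 0.29 in C57BL/6ByJ (SD, n = 3 each), a difference of 0.92 (SE 0.13, 95% interval 0.63 to 1.21) or 1.89-fold, with an adjusted p of 0.00393 by limma. B6By.C.132.54, at 7.35 ± 0.11 (SD, n = 3), gave a difference of -0.71 from BALB/cJ (limma, adjusted p = 0.0238). That call was lost when any single BALB/cJ array, or B6By.C.132.54 replicate 1 or 3, was left out (adjusted p 0.0659 to 0.123), and with log2 of intensity plus 16 (0.0525). It was also lost when all 3 replicate 1 arrays were left out together (adjusted p = 0.238), which made 7 losses in 19 alternatives. The call between BALB/cJ and C57BL/6ByJ was lost only when all 3 replicate 1 arrays were left out together (adjusted p = 0.0989), among the 19 alternatives tried.

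The other probe sets of Gfap were also highest in BALB/cJ. Probe set 1426509_s_at measured 6.41, 6.61 and 6.68 in B6By.C.132.54, 7.26, 7.45 and 7.43 in BALB/cJ, and 6.20, 6.75 and 6.51 in C57BL/6ByJ. It was 0.89 higher in BALB/cJ than in C57BL/6ByJ (limma, adjusted p = 0.00619) and B6By.C.132.54 minus BALB/cJ was -0.81 (adjusted p = 0.0122), the second of which missed the threshold without BALB/cJ replicate 2 or 3 or B6By.C.132.54 replicate 1 (adjusted p 0.0548 to 0.0773). The dimmest, 1440142_s_at, measured 5.53, 5.76 and 5.15 in B6By.C.132.54, 6.02, 6.23 and 6.38 in BALB/cJ, and 5.41, 5.60 and 5.50 in C57BL/6ByJ. Its differences, 0.71 for BALB/cJ over C57BL/6ByJ and -0.73 for B6By.C.132.54 minus BALB/cJ, had adjusted p-values of 0.0456 and 0.0417. Each of those calls rested on most single arrays: leaving out any array of C57BL/6ByJ or BALB/cJ, or B6By.C.132.54 replicate 1, ended the first (adjusted p 0.0543 to 0.213). Leaving out any C57BL/6ByJ array, BALB/cJ replicate 2 or 3, or B6By.C.132.54 replicate 1 or 3 ended the second (adjusted p 0.069 to 0.206). Centring the arrays on their medians ended them as well (adjusted p = 0.0626 and 0.0548), as did log2 of intensity plus 16 (0.0968 and 0.0976).

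**Figure D2:**
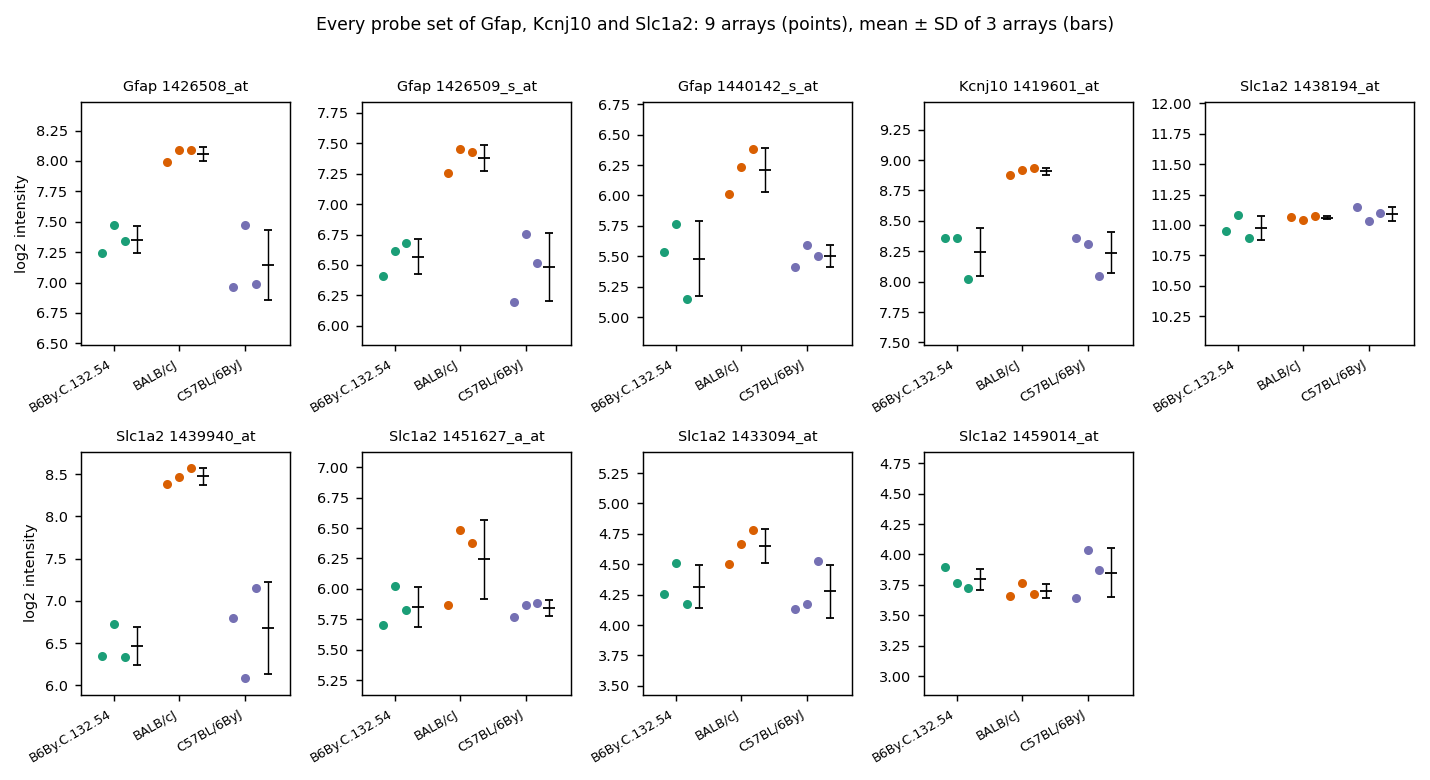
Log2 intensity on each of the 9 arrays (points, replicates 1 to 3 from left to right) for every probe set of Gfap, Kcnj10 and Slc1a2, with the mean ± SD of the 3 arrays of a strain beside them; the vertical axis covers a different range in each panel. The BALB/cJ arrays stood above the other 6 for the 3 probe sets of Gfap, for Kcnj10 and for Slc1a2 1439940_at, and within them for Slc1a2 1438194_at.

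Kcnj10, on chromosome 1, encodes Kir4.1, the inward rectifier channel through which astrocytes take up potassium. Its probe set 1419601_at measured 8.36, 8.36 and 8.02 in B6By.C.132.54, 8.88, 8.92 and 8.93 in BALB/cJ, and 8.36, 8.31 and 8.04 in C57BL/6ByJ. The 3 BALB/cJ arrays lay within 0.1 of each other and above the other 6, which overlapped. BALB/cJ averaged 8.91 ± 0.03 and C57BL/6ByJ 8.24 ± 0.17 (SD, n = 3 each), a difference of 0.67 (SE 0.12, 95% interval 0.41 to 0.93) or 1.59-fold (limma, adjusted p = 0.0144). B6By.C.132.54 differed from BALB/cJ by -0.66 (adjusted p = 0.016) and from C57BL/6ByJ by 0.01 (95% interval -0.25 to 0.26). The call against C57BL/6ByJ was lost when any single BALB/cJ array or C57BL/6ByJ replicate 3 was left out (adjusted p 0.0527 to 0.0726). Without any 1 of the BALB/cJ arrays the call for B6By.C.132.54 was lost too (adjusted p 0.0562 to 0.0821).

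Aqp4 encodes aquaporin-4, the water channel that lines astrocyte end-feet around blood vessels, where Kir4.1 is also dense. Its brightest probe set, 1425382_a_at, measured 8.47, 8.81 and 8.29 in B6By.C.132.54, 8.38, 8.64 and 8.68 in BALB/cJ, and 8.57, 8.54 and 8.88 in C57BL/6ByJ. The 3 strains overlapped, and BALB/cJ minus C57BL/6ByJ was -0.10 with a 95% interval of -0.42 to 0.23 (limma, adjusted p = 0.975). The other probe sets, 1434449_at and 1447745_at, gave -0.20 and -0.18, so that all 3 point estimates lay below 0, and none was called.

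**Figure D3:**
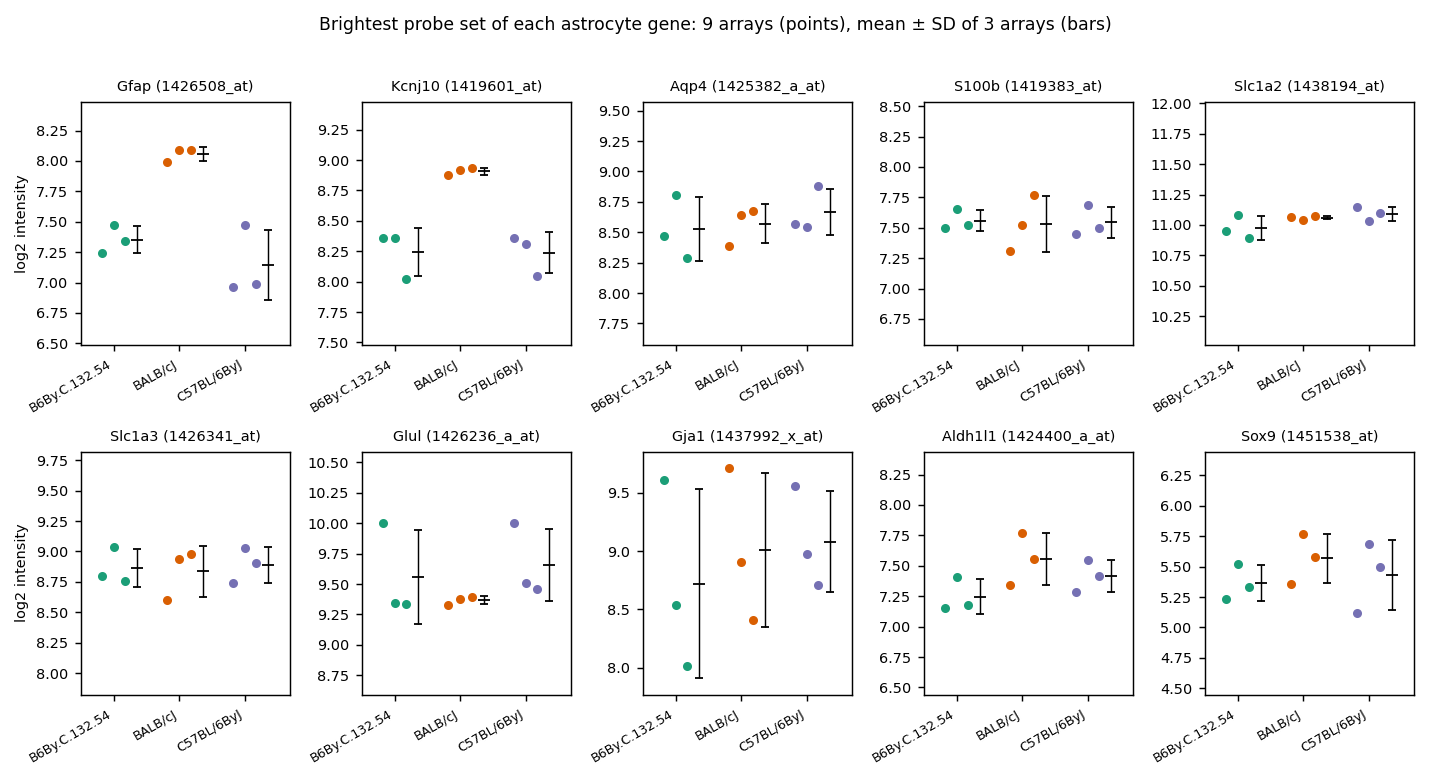
Log2 intensity of the brightest probe set of each of the 10 astrocyte genes on the 9 arrays (points, replicates 1 to 3 from left to right), with the mean ± SD of the 3 arrays of a strain; the vertical axis covers a different range in each panel. BALB/cJ stands apart for Gfap (8.06 ± 0.06) and Kcnj10 (8.91 ± 0.03), and for the other 8 genes the BALB/cJ arrays overlap those of at least 1 other strain.

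Slc1a2 and Slc1a3 encode the astrocytic glutamate transporters GLT-1 and GLAST. The brightest Slc1a2 probe set, 1438194_at, measured 10.95, 11.08 and 10.89 in B6By.C.132.54, 11.07, 11.04 and 11.07 in BALB/cJ, and 11.15, 11.04 and 11.10 in C57BL/6ByJ. The strains overlapped, and the difference between BALB/cJ and C57BL/6ByJ was -0.03 (95% interval -0.21 to 0.15). Probe set 1439940_at of the same gene measured 6.35, 6.72 and 6.33 in B6By.C.132.54, 8.38, 8.47 and 8.58 in BALB/cJ, and 6.79, 6.08 and 7.15 in C57BL/6ByJ. Here the BALB/cJ arrays stood apart, 1.80 above C57BL/6ByJ (SE 0.22, 3.48-fold, limma adjusted p = 0.00138), and B6By.C.132.54 minus BALB/cJ was -2.01 (adjusted p = 0.000653). Both calls remained in every alternative in which that probe set could be tested on its own.

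The remaining Slc1a2 probe sets fell between these or below them. Probe set 1451627_a_at measured 5.70, 6.02 and 5.82 in B6By.C.132.54, 5.87, 6.48 and 6.38 in BALB/cJ, and 5.77, 5.87 and 5.89 in C57BL/6ByJ, a BALB/cJ minus C57BL/6ByJ difference of 0.40 (limma, adjusted p = 0.459). Without BALB/cJ replicate 1 that difference was 0.59 (limma, adjusted p = 0.0436) and B6By.C.132.54 minus BALB/cJ was -0.58 (adjusted p = 0.0492, against -0.39 and 0.506 with all arrays). Probe set 1433094_at gave 0.37 (adjusted p = 0.417), and 1459014_at, with a mean of 3.78 (the median over all probe sets was 3.97), gave -0.15. The 5 probe sets of this gene thus ran from -0.15 to 1.80. The files do not say which transcript or exon each of them reports, and the source of the disagreement was not tested.

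The 6 probe sets of Slc1a3 lay close together, with BALB/cJ minus C57BL/6ByJ between -0.05 and 0.06 and none called. The brightest, 1426341_at, measured 8.80, 9.04 and 8.75 in B6By.C.132.54, 8.60, 8.94 and 8.98 in BALB/cJ, and 8.74, 9.03 and 8.90 in C57BL/6ByJ, and its difference had a 95% interval of -0.33 to 0.23. Glul encodes glutamine synthetase, which turns the glutamate taken up by astrocytes into glutamine. Its probe set 1426236_a_at measured 10.00, 9.34 and 9.33 in B6By.C.132.54, 9.33, 9.38 and 9.40 in BALB/cJ, and 10.00, 9.51 and 9.46 in C57BL/6ByJ. Replicate 1 of B6By.C.132.54 and of C57BL/6ByJ stood above the other arrays for that probe set, and BALB/cJ replicate 1 did not. All 3 BALB/cJ arrays lay below the 3 of C57BL/6ByJ and overlapped B6By.C.132.54. The BALB/cJ minus C57BL/6ByJ difference was -0.29 (95% interval -0.70 to 0.12, adjusted p = 0.854), and 1426235_a_at gave 0.06.

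Gja1 encodes the main gap junction connexin between astrocytes. Its 6 probe sets gave BALB/cJ minus C57BL/6ByJ differences between -0.07 and 0.13, with none called, but for 3 of them the replicate 1 arrays were brighter than the others of their strain by more than 0.5 in every strain. Probe set 1437992_x_at measured 9.61, 8.54 and 8.02 in B6By.C.132.54, 9.71, 8.90 and 8.41 in BALB/cJ, and 9.56, 8.97 and 8.71 in C57BL/6ByJ. Replicate 1 was the brightest array in each strain, by 0.71 to 1.33 over the mean of the other 2 arrays of the strain. The same gap was 0.98 to 1.49 for 1415800_at and 1.80 to 2.33 for 1438945_x_at, while 1415801_at showed gaps of -0.14 to 0.13.

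Because of that split the 95% interval of Gja1 1437992_x_at ran from -0.96 to 0.82, and with the replicate number as a block it was -0.35 to 0.20 around the same difference of -0.07. For 1438945_x_at the SE was 0.74, and 0.17 with the block. No Gja1 probe set was called with the block (lowest adjusted p 0.908 among 1437992_x_at, 1415800_at and 1438945_x_at for this pair). Among the other genes, Aqp4 1434449_at had replicate 1 arrays 0.50 to 1.10 brighter than the others of their strain. The labels give 3 batches with every strain in each and do not state that a replicate number names a batch.

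**Figure D4:**
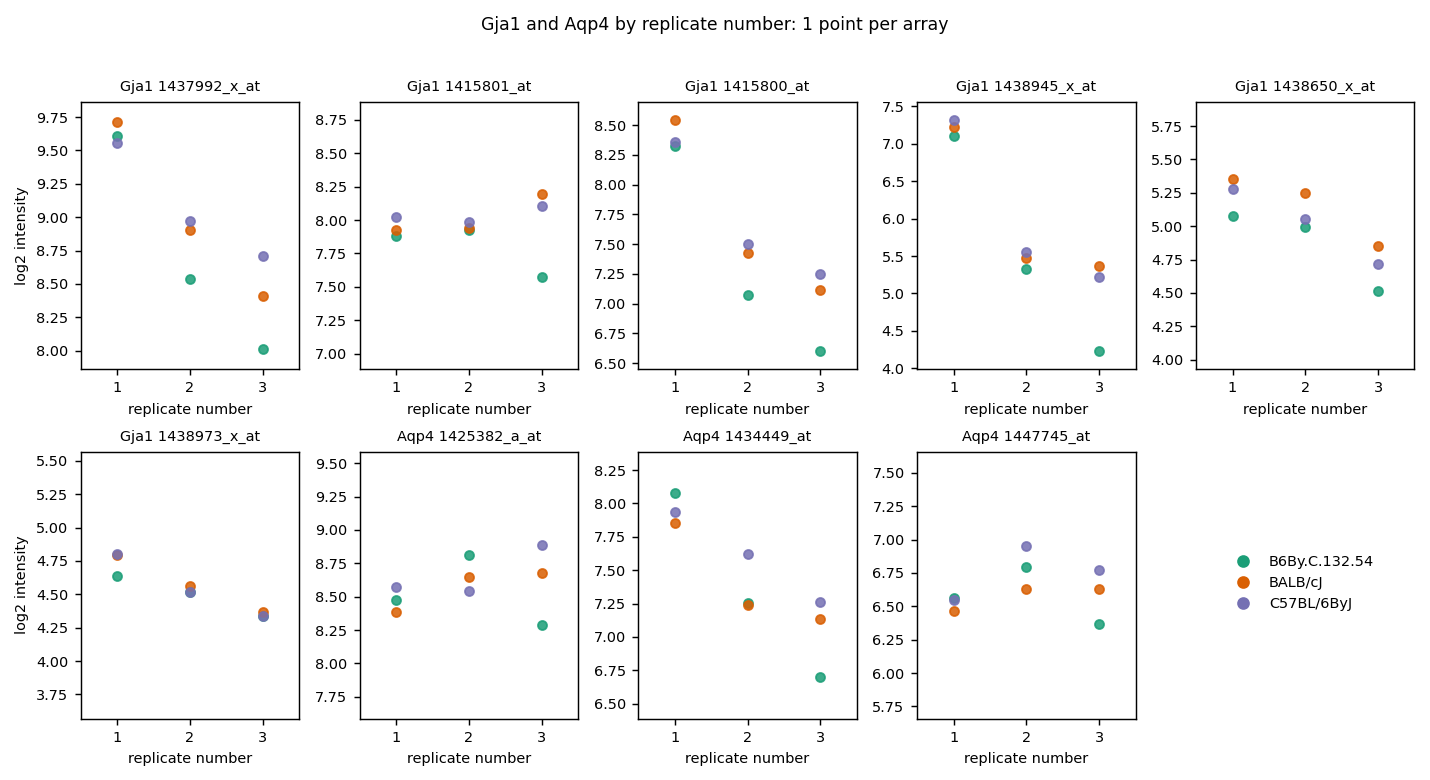
Log2 intensity of the 6 probe sets of Gja1 and the 3 of Aqp4 by replicate number (1 point per array, coloured by strain); the vertical axis covers a different range in each panel. In 4 panels of Gja1 and in that of Aqp4 1434449_at the 3 replicate 1 arrays lie above the other 6, by 1.80 to 2.33 within a strain for Gja1 1438945_x_at, while the strains overlap.

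S100b encodes a calcium-binding protein of astrocytes, Aldh1l1 a folate enzyme used as a broad astrocyte marker, and Sox9 a transcription factor that specifies and marks astrocytes. S100b 1419383_at measured 7.50, 7.66 and 7.52 in B6By.C.132.54, 7.31, 7.52 and 7.77 in BALB/cJ, and 7.45, 7.69 and 7.49 in C57BL/6ByJ. The strains overlapped, with a BALB/cJ minus C57BL/6ByJ difference of -0.01 (95% interval -0.28 to 0.25), and 1434342_at gave -0.04. Aldh1l1 1424400_a_at measured 7.15, 7.41 and 7.18 in B6By.C.132.54, 7.35, 7.77 and 7.55 in BALB/cJ, and 7.28, 7.55 and 7.41 in C57BL/6ByJ. Its differences were 0.14 for BALB/cJ minus C57BL/6ByJ (95% interval -0.13 to 0.42) and -0.31 for B6By.C.132.54 minus BALB/cJ, where the unadjusted p was 0.0298 and the limma adjusted p 0.55. Aldh1l1 1424401_at, below the median level of all probe sets, gave -0.10.

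Sox9 1451538_at measured 5.23, 5.52 and 5.33 in B6By.C.132.54, 5.36, 5.77 and 5.58 in BALB/cJ, and 5.12, 5.68 and 5.49 in C57BL/6ByJ. The strains overlapped, and the BALB/cJ minus C57BL/6ByJ difference was 0.13 (95% interval -0.20 to 0.47), with -0.09 for 1424950_at and 0.02 for 1433889_at. Read by the brightest probe set, the upper end of the 95% interval for a rise in BALB/cJ over C57BL/6ByJ was 1.09-fold for Glul, 1.11-fold for Slc1a2, 1.17-fold for Aqp4 and Slc1a3, and 1.19-fold for S100b. It was 1.33-fold for Aldh1l1, 1.39-fold for Sox9 and 1.76-fold for Gja1. Over the dimmer probe sets of these genes the upper end ran from 1.06-fold (Slc1a2 1459014_at) to 4.88-fold (Slc1a2 1439940_at). Among them it was 1.18-fold for Gja1 1415801_at, 1.27-fold for Glul 1426235_a_at, 1.40-fold for Aqp4 1434449_at and 3.08-fold for Gja1 1438945_x_at. The 1.76-fold and 3.08-fold of Gja1 came from probe sets with brighter replicate 1 arrays. With the replicate number as a block, their upper ends were 0.20 and 0.37 in log2. Without the block, the Gfap interval ended at 2.31-fold and that of Kcnj10 at 1.90-fold. Whether the members' differences differ from each other was not tested.

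Related astrocyte genes were read from lists grouped by role, again by the brightest probe set of each gene. In the intermediate filament list, which holds partners of the Gfap protein, 0 of 5 measured genes were called in either comparison with BALB/cJ. The median BALB/cJ minus C57BL/6ByJ difference was 0.14, beside 0.02 over all genes, from -0.33 for Synm, which encodes the filament protein synemin, to 0.20 for Ezr, which encodes ezrin, a linker of membrane and actin. Vim and Nes, the other filament genes that astrocytes can switch on with Gfap, gave 0.11 and 0.14. In the end-foot list of dystrophin complex and anchoring genes, 0 of 8 were called, with a median of 0.00, from -0.19 for Dmd (dystrophin) to 0.13 for Dtnb (dystrobrevin beta).

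Ion handling was the astrocyte list closest to Kcnj10. Of 6 measured genes 1 was called lower in BALB/cJ than in C57BL/6ByJ and 0 were called higher, and the median difference was 0.03. Kcnk1, which encodes the 2-pore-domain potassium channel TWIK-1, measured 8.35, 8.39 and 8.23 in B6By.C.132.54, 7.77, 7.91 and 7.96 in BALB/cJ, and 8.39, 8.50 and 8.34 in C57BL/6ByJ. All 3 BALB/cJ arrays lay below the other 6, with a difference of -0.53 from C57BL/6ByJ (limma, adjusted p = 0.0119), which missed the threshold without C57BL/6ByJ replicate 2 or BALB/cJ replicate 1 (adjusted p = 0.0766 and 0.0603). Its second probe set gave -0.49 (adjusted p = 0.0071). B6By.C.132.54 minus BALB/cJ was 0.44 for the brighter probe set (adjusted p = 0.0379), and this call was lost in 10 of 19 alternatives, among them leaving out any array other than B6By.C.132.54 replicate 3 (adjusted p 0.0601 to 0.164).

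Kcnj16 encodes Kir5.1, the subunit that forms channels together with Kir4.1. It measured 5.44, 5.13 and 4.92 in B6By.C.132.54, 5.78, 5.91 and 5.65 in BALB/cJ, and 5.27, 5.33 and 5.35 in C57BL/6ByJ, so the BALB/cJ arrays stood above the other 6. The difference was 0.47 from C57BL/6ByJ (limma, adjusted p = 0.166) and -0.62 for B6By.C.132.54 minus BALB/cJ (adjusted p = 0.042), and the second of these lost its call in 12 of 19 alternatives. Those included leaving out any array other than B6By.C.132.54 replicate 1 (adjusted p 0.0738 to 0.215). The second Kcnj16 probe set, 1435094_at, was also highest in the BALB/cJ arrays, and neither difference was called. They were 0.39 from C57BL/6ByJ (limma, adjusted p = 0.181) and -0.45 for B6By.C.132.54 minus BALB/cJ (adjusted p = 0.108).

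In the list of amino acid and energy genes that work beside the glutamate transporters, 0 of 8 were called, with a median of 0.06, from -0.19 for Slc7a11 (the cystine-glutamate exchanger) to 0.33 for Slc38a5 (a glutamine transporter). Of 15 further astrocyte-enriched genes, 1 was called higher in BALB/cJ, with a median of 0.07 over the list. Cst3, the gene of the protease inhibitor cystatin C, measured 11.68, 11.53 and 11.56 in B6By.C.132.54, between 11.99 and 12.05 in BALB/cJ, and 11.68, 11.61 and 11.56 in C57BL/6ByJ. The BALB/cJ arrays were the highest 3, and the difference from C57BL/6ByJ was 0.39 (limma, adjusted p = 0.0375), a call lost without any 1 array of BALB/cJ or C57BL/6ByJ (adjusted p 0.0872 to 0.174). For B6By.C.132.54 minus BALB/cJ it was -0.42 (adjusted p = 0.027, and 0.0576 to 0.113 without C57BL/6ByJ replicate 2, any BALB/cJ array, or B6By.C.132.54 replicate 2 or 3). The lowest gene of that list was Gjb6, which encodes the astrocyte gap junction protein connexin 30, at -0.30 (adjusted p = 0.276).

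Among 16 measured regulators of astrocyte identity and of Gfap, which include Stat3, Nfia and Nfib, 0 were called, with a median of 0.03. They ran from -0.17 for Lifr, a cytokine receptor upstream of STAT3, to 0.19 for Hes1, a Notch target. Stat3 itself gave 0.05, Nfia -0.14 and Nfib -0.16. These 3 values were transcript differences only, and the activity of the proteins was not measured.

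Genes that rise in reactive astrocytes in mouse injury models, a state in which Gfap is the usual marker, were read as well. Of 11 such genes 1 was called higher and 1 lower in BALB/cJ, with a median of 0.01, and 5 of the 11 were dimmer than the median probe set. Serpina3n, a secreted serine protease inhibitor, measured 5.31, 5.68 and 5.76 in B6By.C.132.54, 6.70, 7.06 and 6.87 in BALB/cJ, and 5.40, 5.60 and 5.74 in C57BL/6ByJ. BALB/cJ was above every other array, by 1.30 over C57BL/6ByJ (limma, adjusted p = 0.000573), and B6By.C.132.54 minus BALB/cJ was -1.29 (adjusted p = 0.000602). Both calls remained in all 19 alternatives.

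Cd44, the gene of a hyaluronan receptor, moved the other way. Its brightest probe set measured 4.63, 4.61 and 4.67 in B6By.C.132.54, 3.83, 4.02 and 4.05 in BALB/cJ, and 4.54, 4.54 and 4.65 in C57BL/6ByJ, a difference of -0.61 (limma, adjusted p = 0.00375), with 0.67 for B6By.C.132.54 minus BALB/cJ (adjusted p = 0.00209). The level is near the median of all probe sets, and with the median over its 4 probe sets in place of the brightest the differences were -0.18 (adjusted p = 0.605) and 0.09 (adjusted p = 0.846). Lcn2 and Steap4, which are strong reactive markers in mouse, gave -0.03 and 0.01, at mean levels of 2.52 and 3.12. Of 21 measured genes named for subsets of reactive astrocytes, 0 were called, from -0.28 for Tm4sf1 to 0.41 for Ptgs2, and 10 of the 21 were dimmer than the median probe set.

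**Figure D5:**
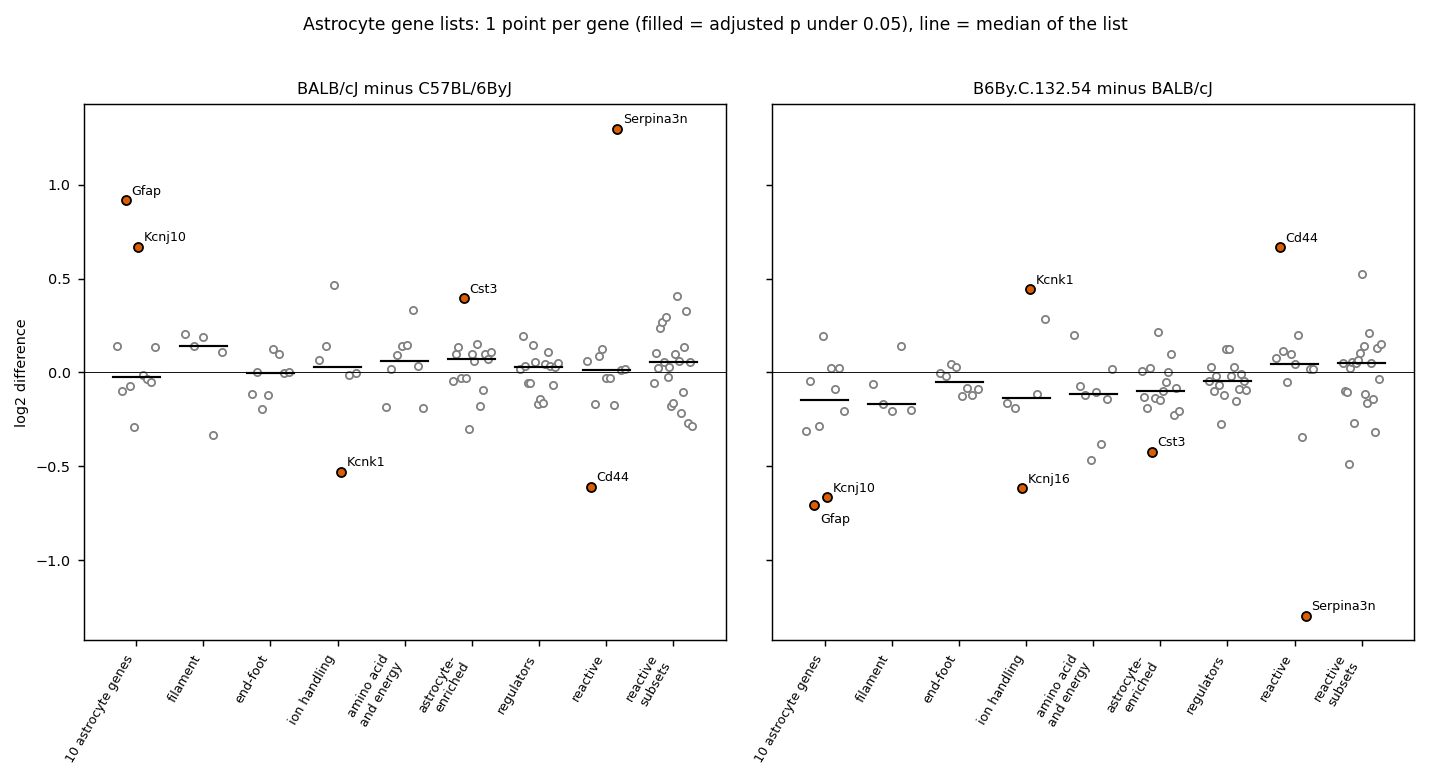
Log2 difference of each gene (points, by brightest probe set) in the 10 astrocyte genes and in 8 related lists, for BALB/cJ minus C57BL/6ByJ and B6By.C.132.54 minus BALB/cJ; lines are the median of a list and filled, named points have an adjusted p below 0.05. List medians in the first panel ran between -0.02 (the 10 astrocyte genes) and 0.14 (filament genes), while Serpina3n (1.30), Gfap (0.92) and Kcnj10 (0.67) lie far above them.

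Markers of other brain cells were read beside these values. The sums given for them add the intensities of different probe sets, so each follows its brightest genes. Of 10 neuron markers 1 differed in BALB/cJ from C57BL/6ByJ past the threshold: Slc17a7, the vesicular glutamate transporter of cortical excitatory neurons, which was lower in BALB/cJ with a log2 difference of -1.45 (adjusted p by limma 0.00272). The summed neuron markers ran from 8160 to 9848 in B6By.C.132.54, 8802 to 10277 in BALB/cJ and 9436 to 10733 in C57BL/6ByJ. Of 10 microglia markers 2 were called, the complement genes C1qb and C1qc, each lower in BALB/cJ with a difference of -0.75 (limma, adjusted p = 0.0193 and 0.00943). The other 8 were not called. Among them C1qa gave 0.17 (limma, adjusted p = 0.831), the highest of the list, whose median was -0.04. Microglia sums were 1274 to 1472 in B6By.C.132.54, 1165 to 1330 in BALB/cJ and 1283 to 1408 in C57BL/6ByJ.

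Of 10 vascular markers 1 was called between BALB/cJ and C57BL/6ByJ, Cldn5 of endothelial tight junctions at -0.54 (limma, adjusted p = 0.0466), and Rgs5 of pericytes gave -0.56 for B6By.C.132.54 minus BALB/cJ (adjusted p = 0.0361). Vascular sums were 800 to 935 in B6By.C.132.54, 900 to 985 in BALB/cJ and 953 to 977 in C57BL/6ByJ. Of 9 oligodendrocyte and 4 precursor markers 0 were called, with oligodendrocyte sums of 8682 to 10411 in B6By.C.132.54, 9823 to 10388 in BALB/cJ and 9744 to 10334 in C57BL/6ByJ, and precursor sums of 583 to 645 in B6By.C.132.54, 606 to 660 in BALB/cJ and 578 to 687 in C57BL/6ByJ. Of 6 ependymal and choroid plexus markers 0 were called, with sums of 3727 to 4593 in B6By.C.132.54, 3728 to 4698 in BALB/cJ and 4110 to 4878 in C57BL/6ByJ. Of 6 cerebellar markers and 3 blood markers 0 were called. No marker was at 0, since every deposited intensity was above 0, and the part of cell make-up in the Gfap and Kcnj10 differences was not tested.

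Radial glia and adult neural stem cells also express astrocyte genes, Gfap among them. Of 4 measured markers of these cells, 1 was called higher and 1 lower in BALB/cJ than in C57BL/6ByJ. Prom1, the gene of the surface protein prominin-1, measured 5.59, 6.04 and 5.70 in B6By.C.132.54, 6.59, 6.83 and 6.85 in BALB/cJ, and 6.05, 6.03 and 6.11 in C57BL/6ByJ. It was 0.69 higher in BALB/cJ (limma, adjusted p = 0.0139, and 0.0527 to 0.0827 without any C57BL/6ByJ array or without BALB/cJ replicate 2 or 3), and B6By.C.132.54 minus BALB/cJ was -0.98 (adjusted p = 0.00134). Hopx, which encodes a small homeodomain protein also found in mature astrocytes, measured 9.02, 8.94 and 9.07 in B6By.C.132.54, 8.05, 8.14 and 8.08 in BALB/cJ, and 8.82, 9.07 and 9.02 in C57BL/6ByJ. Its BALB/cJ arrays were the lowest 3, with differences of -0.88 for BALB/cJ minus C57BL/6ByJ (adjusted p = 0.00037) and 0.91 for B6By.C.132.54 minus BALB/cJ (adjusted p = 0.000307), whereas Sox2 gave -0.10 and Pax6 0.11. The second Hopx probe set, 1451776_s_at, measured 7.00, 7.01 and 6.84 in B6By.C.132.54, 6.42, 6.64 and 6.86 in BALB/cJ, and 6.88, 7.20 and 7.18 in C57BL/6ByJ. BALB/cJ overlapped B6By.C.132.54 there, and neither difference was called (-0.45 for BALB/cJ minus C57BL/6ByJ, limma adjusted p = 0.206, and 0.31 for B6By.C.132.54 minus BALB/cJ, adjusted p = 0.585).

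The genes beside Gfap and Kcnj10 on their chromosomes were read in gene order. The 3 measured genes on each side of Gfap were Eftud2, Ccdc103, Fam187a, Kif18b, C1ql1 and 2410004I01Rik, and 0 of the 6 were called, with differences of -0.14 for Eftud2 to 0.09 for Fam187a. Beside Kcnj10, 1 of 6 was called. Kcnj9, its direct neighbour and the gene of the G protein-gated channel subunit Kir3.3, was 1.70 higher in BALB/cJ than in C57BL/6ByJ (limma, adjusted p = 0.000399) and gave -2.22 for B6By.C.132.54 minus BALB/cJ (adjusted p = 6.02e-05). When the probe sets of Kcnj9 were reduced to their median, the first difference was 0.42 (adjusted p = 0.367). The other neighbours, Atp1a4, Igsf8, Pigm, Slamf9 and Igsf9, were not called, with Pigm lowest at -0.32.

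Over all 10 members, 2 of the 60 neighbouring genes were called for BALB/cJ against C57BL/6ByJ (Kcnj9 and, beside Slc1a2, Cd44) and 3 of 60 between B6By.C.132.54 and BALB/cJ (the same 2 and Kcnj16, which lies 3 measured genes from Sox9). Of all genes, taken by their brightest probe set, 1.32% were called for the first of these pairs and 1.1% for the second. Genes that stand side by side are not independent of each other.

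The genes whose levels followed Gfap most closely over the 9 arrays, among 11468 other genes brighter than the median, were Selenon (r = 0.977), Pih1d1 (0.967), Trappc2l (0.966), Alad (0.965) and Sfxn1 (0.964). Kcnj10 stood at rank 75 for Gfap with r = 0.882, and at r = 0.232 once each strain's mean was taken off. For Kcnj10 the closest were Scg5 (0.970), Frg1 (0.966), Scrg1 (0.965), Rps2 (0.963) and Snapc3 (0.962), with Gfap at rank 79. Among the 10 member genes, the next for Gfap was Aldh1l1 at rank 1038 (r = 0.620). For Kcnj10 the next member was also Aldh1l1, at rank 1145 (r = 0.578). Genes of the related lists outside the 10 were not looked up in these ranks. Gfap and Kcnj10 were chosen for the same strain difference, which enters these ranks. With each strain's mean taken off, r was 0.776 to 0.921 for the 5 genes named beside Gfap and 0.701 to 0.919 for the 5 named beside Kcnj10. These genes were picked for the highest r over the same 9 arrays, which favours high values here too. Their values are therefore no separate evidence and cannot be set beside those of the members. With strain means taken off, Gfap had r = 0.769 with Sox9, 0.662 with Slc1a3, 0.655 with Aldh1l1 and 0.645 with S100b. Its r was 0.01 with Aqp4, -0.194 with Slc1a2, -0.346 with Gja1 and -0.482 with Glul. For Kcnj10 the members ran from -0.06 (Sox9) to 0.587 (Glul). In every strain the brightest probe sets of Gfap, Sox9, Slc1a3, Aldh1l1, S100b and Aqp4 were dimmer in replicate 1 than in the mean of the other arrays. That shift enters these values. The arrays of a strain share their background, and all correlations here are descriptions over 9 arrays.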

How the data were processed

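The authors deposited a table of linear intensity values with 1 row per probe set and 1 column per array. GCOS and RMA are named per the submitters' processing notes, without versions or an order, and the labels' protocols give 7 µg of RNA as input to labelling. How the arrays were normalized and the genome build are not given in the sources used here. Depth does not apply to arrays: precision is limited by their number.

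The values were used as log2 without a pseudocount or added normalization. After 64 control probe sets were left out, 45037 of 45101 were tested. The strain means of the 9 arrays were compared in limma 3.58.1 (R 4.3.3), whose lmFit and eBayes left 6 residual and 4.823 prior degrees of freedom. Tests were two-sided and Benjamini-Hochberg adjusted over the 45037. The model was tested on simulated data in which each array was drawn independently. Deviations shared by replicate number were not part of that test. By the platform annotation 34945 probe sets had 1 gene symbol, and the 932 with several and 9160 with none stay unnamed. Symbols, chromosomes and gene order came from RefSeq (GRCm38.p6). The probe set with the highest mean over 9 arrays represents a gene.

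Deviations from strain means correlated at 0.147 to 0.542 in all 9 same-numbered pairs and at -0.458 to 0.153 in the other 18. Pairs of replicate 1 arrays were the highest, at 0.519 to 0.542. Pairs of replicate 2 arrays, at 0.147 to 0.18, overlapped the pairs with unlike numbers. The main model has no block. The members and gene lists were chosen with earlier results of these data known. The text names all member probe sets, list genes that were called, the highest and lowest gene of the astrocyte lists, 5 genes most like Gfap and Kcnj10 each, and 3 measured neighbours on each side. Of the other cell type lists it names the called genes and those the comparison turns on. Vim, Nes, Stat3, Nfia, Nfib, Lcn2, Steap4, Sox2 and Pax6 were added for their roles after their values were seen. A few genes of the lists are not reported here. Alternatives were a replicate block, each array left out, a filter on dim probe sets, quantile normalization, median centring, a variance trend, array weights, log2 of intensity plus 16, the 2 strains alone and the median over probe sets. Leaving out the 3 replicate 1 arrays together was chosen after seeing the data.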

Additional observations from a re-analysis of the deposited data

How the results depend on the processing

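Over 19 alternatives, the 25 called differences followed among Gfap, Kcnj10, Slc1a2 and the related genes changed sign in 0 of 469 values and lost their call in 93, and 9 kept it throughout. Among 17 uncalled differences, 2 of 323 values were called, both for Kcnj16 in BALB/cJ over C57BL/6ByJ (0.49 with array weights and 0.47 with the 2 strains alone), and 12 of the 17 changed sign somewhere. Of the astrocyte probe sets outside these, Slc1a2 1451627_a_at was called for both pairs with BALB/cJ without BALB/cJ replicate 1. With 1 array left out, the number of astrocyte probe sets called ran from 3 to 5 for BALB/cJ against C57BL/6ByJ and from 1 to 5 for B6By.C.132.54 against BALB/cJ. The low counts for the second pair came without BALB/cJ replicate 2 or 3 (1 each) and without B6By.C.132.54 replicate 1 (2) or 3 (3). For B6By.C.132.54 against C57BL/6ByJ the count was 0 in all of these. With log2 of intensity plus 16 the count for B6By.C.132.54 against BALB/cJ was 3. Without the 3 replicate 1 arrays it was 2 for each pair with BALB/cJ, and all probe sets called fell to 309 for BALB/cJ against C57BL/6ByJ and 276 for B6By.C.132.54 against BALB/cJ, from fewer arrays. The Gfap difference between BALB/cJ and C57BL/6ByJ was then 0.86 (limma, adjusted p = 0.0989) and that of Kcnj10 0.75 (adjusted p = 0.127). With single arrays left out, Kcnj10 ran from 0.57 to 0.73 (adjusted p 0.00547 to 0.0726). The replicate block changed no call among the 33 astrocyte probe sets or the 42 differences followed. With it, Selenon, Trappc2l, Frg1 and Snapc3 were called for BALB/cJ against C57BL/6ByJ (adjusted p 0.0181 to 0.0241, against 0.0577 to 0.101 without it), and Frg1 and Snapc3 for B6By.C.132.54 against BALB/cJ too (0.0203 and 0.0283, against 0.103 and 0.0783). It gave 953 calls over all probe sets for BALB/cJ against C57BL/6ByJ, against 644 without it, and 834 against 575 for B6By.C.132.54 against BALB/cJ. Of the 33 astrocyte probe sets, 13 had an unadjusted p below 0.05 for the second pair with the block and 8 without it. Without the block 7.5% of all probe sets had such a p, and the share with the block is not given here. Both counts include Gfap and Kcnj10, so they are no result about the other astrocyte genes. The cause of the changes with the block was not tested. Signal over background limits the dimmest probe sets: 28 of the 33 stayed when the dim ones were left out, with 5 calls for each pair with BALB/cJ.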
